A study of Homo sapiens with 34 samples.

Results

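Small CTD phosphatases take phosphate off the C-terminal domain (CTD) of the largest subunit of RNA polymerase II. The 5 genes described here are CTDSPL, CTDSP1 and CTDSP2, which make up the small phosphatase family proper, and their relatives CTDSPL2 and CTDP1. They were selected on the data: CTDSPL was chosen because its level was among those that dropped furthest after CCND3 knockdown in these cells, and the others were added by name as its relatives. All 5 were listed in each of the 6 comparisons, out of 13307 genes listed in all 6. The knockdown values of CTDSPL are therefore a description of how it was chosen, and nothing is rested on them.

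The measurements were RNA-seq levels from 3 established human B-cell acute lymphoblastic leukemia (B-ALL) lines. BV-173 carries the fusion BCR-ABL, RS4;11 carries MLL-AF4, and NALM-6 carries ETV6-PDGFRB. In each line, cells carrying a lentiviral short hairpin against CCND3 (shCCND3) were set beside cells carrying a scrambled hairpin (scrambled), both sorted for the vector's red fluorescent protein at day 4 after transduction. Separately, cells kept for 3 days in 1 µM palbociclib, an inhibitor of CDK4 and CDK6, were set beside cells kept in the solvent (DMSO). The 34 libraries fell into 12 groups, 10 of them with 3 libraries and 2 of them (NALM-6 shCCND3 and BV-173 DMSO) with 2. A single hairpin sequence was used for the sequenced cells, so loss of CCND3 and any other effect of that hairpin cannot be told apart, and each genetic subtype was represented by a single line. The tables gave 1 normalized level per gene and group, the authors' value for the pooled libraries, with no spread between libraries and no read depth. No test within a line was therefore made from these levels, and an exact sign permutation over the 3 lines cannot give a two-sided p below 0.25, so none was run. "Lower" and "higher" below describe those levels, and any SD is over the 3 lines. Fewer cells of a type and less RNA per cell cannot be told apart in such bulk samples.

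The B-ALL label was checked in the scrambled and DMSO controls. The B-lineage precursor genes PAX5 and EBF1, transcription factors of B cell identity, CD79A, a part of the B cell receptor, IGLL1, a part of the pre-B cell receptor, and RAG1, a recombinase, were abundant in all 6 control groups. The levels that follow are as deposited, from tables scaled separately. PAX5 was between 10369 (BV-173 scrambled) and 17673 (NALM-6 scrambled), EBF1 between 3644 (RS4;11 scrambled) and 7087 (NALM-6 DMSO), and IGLL1 between 8926 (RS4;11 scrambled) and 17068 (BV-173 DMSO). CD79A ranged from 1870 to 15584 and RAG1 from 2907 to 25143. CD22, CD79B and VPREB1 were at 1255 or more in all 6. DNTT, the terminal transferase of lymphoid precursors, was between 5459 and 13765 in NALM-6 and BV-173 cells but at 135 and 215 in the scrambled and DMSO groups of RS4;11, where the myeloid marker CSF1R was at 508 and 318. The 4 T cell markers together took at most 0.234 parts per 1000000 (ppm) of the summed level (RS4;11 scrambled, where CD3D was the most abundant) and the 3 erythroid markers at most 0.0669 ppm (NALM-6 scrambled). The 5 myeloid markers took from 14.1 (NALM-6 DMSO) to 70.4 ppm (BV-173 scrambled), led by CD33 in NALM-6 and BV-173 and by CSF1R in RS4;11.

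RNA polymerase II carries a long tail of repeated amino acids whose phosphorylation changes as the enzyme starts, elongates and ends a transcript. CDK7, CDK9 and related kinases add the phosphates, and CTD phosphatases remove them. CTDP1, also called FCP1, is the general phosphatase that returns the polymerase to its unphosphorylated form and is stimulated by the factor TFIIF. The small phosphatases CTDSP1, CTDSP2 and CTDSPL are brought to neuronal genes by the repressor REST in non-neuronal cells, and they also act on SMAD proteins. CTDSPL, also called RBSP3 or HYA22, can dephosphorylate the retinoblastoma protein RB1, the protein that cyclin D with CDK4 or CDK6 phosphorylates. It has been described as a tumor suppressor that is lost or silenced in several cancers.

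CTDSPL (gene ID 10217) spans chr3:37861880-37984469 on the plus strand of GRCh38.p14, a locus of 123 kb. CTDSP1 (gene ID 58190) lies at chr2:218396351-218405941 on the plus strand and CTDSP2 (gene ID 10106) at chr12:57819927-57846729 on the minus strand. Each of these 3 genes holds a member of the miR-26 family in an intron, on the same strand: MIR26A1 in intron 5 of the 7 introns of CTDSPL (chr3:37969404-37969480), MIR26B in intron 4 of the 6 introns of CTDSP1 (chr2:218402646-218402722) and MIR26A2 in intron 5 of the 7 introns of CTDSP2 (chr12:57824609-57824692), counted in the canonical GENCODE transcripts. No annotated exon of the host genes overlapped a hairpin. The mature 5p arms are shown because they are what ties these 3 host genes together besides the protein family. The MIR26A1 and MIR26A2 hairpins carry the same 5p arm, and 1 seed (bases 2 to 8, in capitals, from RefSeq) is shared by both mature forms.
hsa-miR-26a-5p: uUCAAGUAauccaggauaggcu
hsa-miR-26b-5p: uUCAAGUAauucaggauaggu
None of the 6 comparisons listed a row for any of the 3 miR-26 loci, so the values below concern the host genes alone and say nothing about the miRNAs.

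CCND3, the cyclin D targeted by the hairpin, checked the labels. Its level was 19498 in scrambled and 4727 in shCCND3 NALM-6 cells, 16178 and 3353 in RS4;11 cells, and 6619 and 2060 in BV-173 cells. CCND3 thus stood at 24.2%, 20.7% and 31.1% of control, in that order, and its mean log2 ratio over the 3 lines was -2.00 (SD 0.30). Under palbociclib the log2 ratio of CCND3 was between -0.40 and -0.29.

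CTDSPL was lower in all 6 comparisons, and by most in RS4;11 cells. This count is a description only, since it includes the 3 knockdown comparisons by which CTDSPL was chosen. After knockdown its level went from 133 in scrambled to 31.8 in shCCND3 NALM-6 cells, from 341 to 51.1 in RS4;11 cells and from 376 to 149 in BV-173 cells. With palbociclib it went from 113 in DMSO to 27.3 in NALM-6 cells, from 449 to 78.3 in RS4;11 cells and from 494 to 350 in BV-173 cells. As shares of the summed level, since the 6 tables were scaled separately, both treated groups were below both controls within each line. Among controls the shares of the NALM-6 groups were the lowest and the BV-173 groups the highest with either control. The plot of levels shows these shifts beside those of the other 4 genes.

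**Figure D1:**
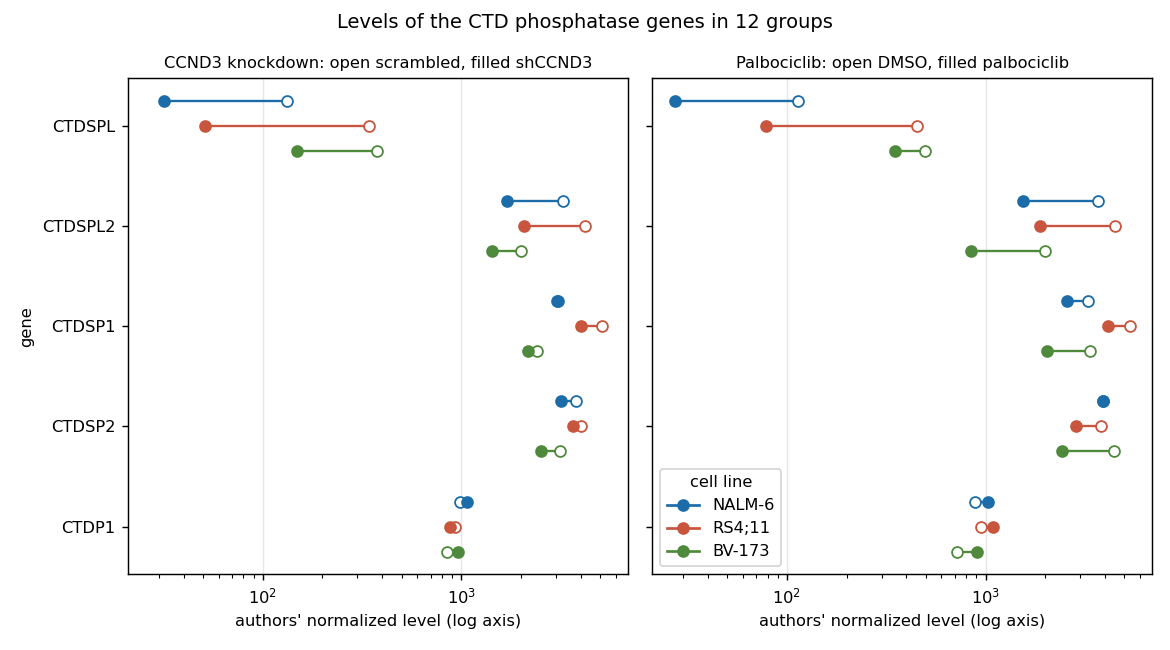
Levels of the 5 genes in the 12 groups (authors' normalized level, log axis), with each control as an open circle, each treated group as a filled circle and a line joining the pair of a cell line. CTDSPL has the lowest level of the 5 genes in each group and the longest knockdown lines, from 341 to 51.1 in RS4;11 cells, while the CTDP1 pairs lie close together.

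In folds, CTDSPL was 4.19-fold lower after knockdown in NALM-6, 6.68-fold lower in RS4;11 and 2.53-fold lower in BV-173 cells. Its log2 ratios were -2.07, -2.74 and -1.34, a mean of -2.05 (SD 0.70). Only 2 of 15409 listed genes had a lower ratio in NALM-6 cells, 0 of 15944 in RS4;11 cells and 10 of 14763 in BV-173 cells. By the mean over the lines CTDSPL ranked 1 and CCND3 itself ranked 2 from the lowest of 13307 genes. This position is what brought CTDSPL to attention and is given as such.

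Palbociclib, a contrast with separate libraries and separate controls, gave CTDSPL log2 ratios of -2.52 in RS4;11 cells, -2.05 in NALM-6 cells and -0.50 in BV-173 cells. The mean was -1.69 (SD 1.06), and without BV-173 cells it was -2.29. In NALM-6 and RS4;11 cells the ratio was thus close in size to that after knockdown, 4.15-fold and 5.74-fold lower, but its place among all genes was another. More genes had large negative ratios with palbociclib, and 1.73% of listed genes in RS4;11 cells, 1.95% in NALM-6 cells and 15.1% in BV-173 cells had a lower ratio than CTDSPL. By the mean over lines CTDSPL ranked 328 of 13307 genes with palbociclib. Since CTDSPL was chosen for its knockdown values, the contrast between its places under the treatments is a description only.

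**Figure D2:**
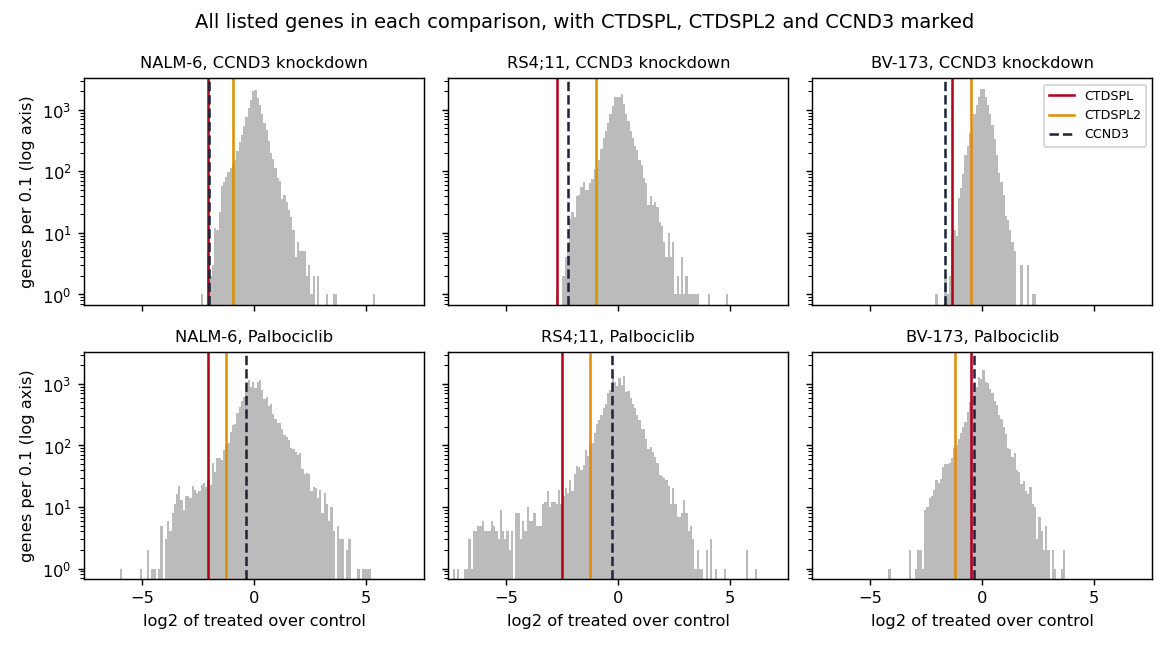
Histograms of the log2 ratio of treated over control level for all listed genes in each comparison (bins of 0.1, gene number on a log axis), with CTDSPL, CTDSPL2 and CCND3 as vertical lines. CTDSPL lies at the left edge in the 3 knockdown panels, the contrasts by which it was chosen, where 2, 0 and 10 genes were lower. It lies further in with palbociclib, and in the body of the histogram in BV-173 cells, where 15.1% of genes were lower.

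CTDSPL is a gene of low level, and the spread of log2 ratios over genes of like level is given for scale. It mixes responses with error and does not measure the precision of a single gene. In NALM-6 cells its mean level in the knockdown comparison was 82.5, and the SD of log2 ratios over the 1881 genes with a mean level from 10 to 100 was 0.648 there. In RS4;11 and BV-173 cells its mean levels were 196 and 262, and over genes from 100 to 1000 the SDs were 0.568 and 0.354. With palbociclib the SDs in the same bands were wider, 1.18 in NALM-6 cells, 0.968 in RS4;11 cells and 0.651 in BV-173 cells. Ratios of the least abundant genes lay nearer to 0 in the deposited levels: the SD was 0.186 over genes under 2 in NALM-6 knockdown, against 0.465 over genes from 2 to 10. Whether the deposited levels were moderated by the authors' model was not given in the sources used here, and the folds of low genes such as CTDSPL may carry such moderation. CTDSP1, CTDSP2 and CTDSPL are also close paralogs, and reads that match more than one of them may have been split by the authors' estimation, which adds an uncertainty that these tables do not show.

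CTDSPL2, also known as SCP4, was an abundant gene. It was lower in all 6 comparisons, a description only, since the share of all genes that were is not given. Its level was 3257 in scrambled and 1691 in shCCND3 NALM-6 cells, 4202 and 2076 in RS4;11 cells, and 1993 and 1421 in BV-173 cells. With palbociclib the pairs were 3681 and 1544, 4470 and 1887, and 1991 and 843 in the same order of lines. The log2 ratios after knockdown were -0.95, -1.02 and -0.49 (mean -0.82, SD 0.29). With palbociclib they were -1.25, -1.24 and -1.24 (mean -1.25, SD 0.0068). The 3 lines thus retained 42.0%, 42.2% and 42.3% of their control level. How close the lines lay depended on the scaling. Once the median of all genes was taken out, the palbociclib ratios of CTDSPL2 were -1.31, -1.26 and -1.28.

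CTDSPL2 (gene ID 51496) begins at chr15:44427629 on the plus strand. RefSeq promoter windows of 300 bases (250 before to 50 after a start, GRCh38.p14) were present for 4 of the 5 genes, with 11 starts in all. There was no entry for CTDSPL. The windows were searched on both strands for E2F words (TTTCCCGC and TTTGGCGC) and for the cell cycle homology region words TTTGAA and TTCGAA, since E2F genes were among those that moved with both treatments. CTDSPL2 held 1 E2F word, at bases 16 to 23 counted downstream from its start, and none of the other 3 genes held one. Of 27305 genes with a window, 2.75% held an E2F word and 19.5% a cell cycle homology region word; none of the 4 genes held the latter. The 30 bases around the word in CTDSPL2 (chr15:44427633-44427662, plus strand) are shown with the word in capitals, beside those of UHRF1 (chr19:4909476-4909505, plus strand) and WDR62 (chr19:36054870-36054899, plus strand), both of which come up below as genes with a pattern near that of CTDSPL.
CTDSPL2: caggtcggtagGCGGGAAAtggcgactggc
UHRF1: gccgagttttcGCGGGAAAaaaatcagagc
WDR62: gtggcgccggcTTTCCCGCggctgttcgct
These 2 were shown because they hold the word. Of the 5 genes with a pattern near that of CTDSPL2 itself, 0 held an E2F word. A match is a run of letters and was not tested as a binding site.

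CTDSP1 and CTDSP2, the more abundant small phosphatases, stayed within 1.5-fold after knockdown in all 3 lines. The level of CTDSP1 was 3060 and 3019 in scrambled and shCCND3 NALM-6 cells, 5093 and 4025 in RS4;11 cells, and 2398 and 2176 in BV-173 cells, giving log2 ratios of -0.02, -0.34 and -0.14. For CTDSP2 the log2 ratios after knockdown were -0.25, -0.13 and -0.32. All 6 of these values were below 0, but 15.5% to 46.9% of listed genes had a lower one.

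With palbociclib, BV-173 cells had the lowest ratios of the 3 lines for these paralogs. CTDSP1 went from 3351 to 2043 there, a log2 ratio of -0.71, compared with -0.35 in NALM-6 and -0.37 in RS4;11 cells. CTDSP2 went from 4449 to 2422, a log2 ratio of -0.88, compared with 0.00 in NALM-6 and -0.43 in RS4;11 cells. CTDSPL, by contrast, had its palbociclib ratio nearest to 0 in BV-173 cells. The BV-173 DMSO group, which held 2 libraries, also had higher shares of both genes than the BV-173 scrambled group: of the summed level, CTDSP1 took 174 against 124 ppm and CTDSP2 took 231 against 163 ppm.

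CTDP1 (gene ID 9150, chr18:79676768-79756625, plus strand) had ratios on the other side of 0 in 5 of its 6 comparisons, none of them past 1.5-fold. Its level was 988 and 1066 in scrambled and shCCND3 NALM-6 cells, 933 and 881 in RS4;11 cells, and 846 and 964 in BV-173 cells. With palbociclib the log2 ratios were 0.22, 0.18 and 0.33 (mean 0.25, SD 0.08). The mean after knockdown was 0.07 (SD 0.14).

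**Figure D3:**
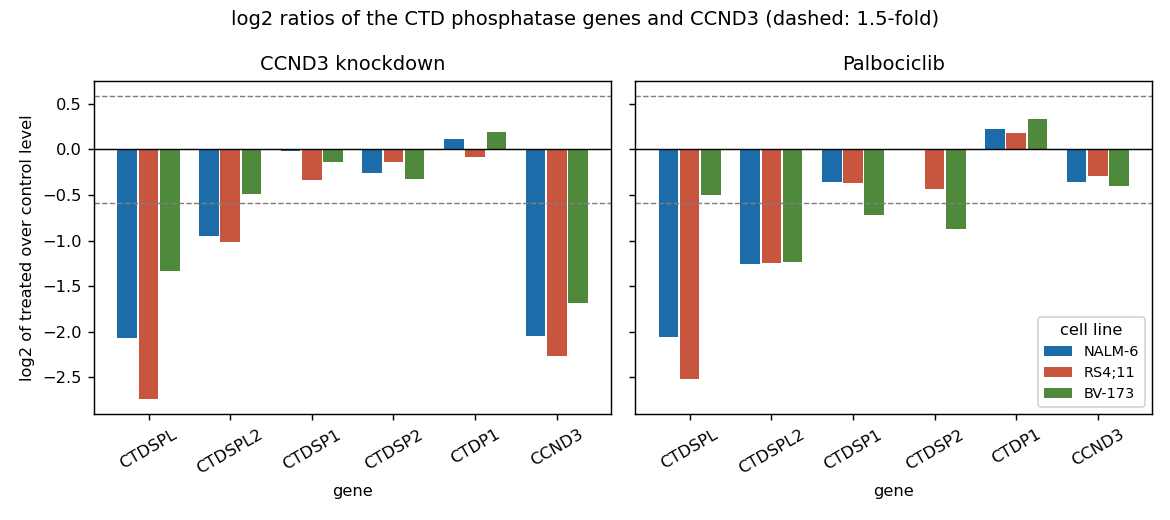
Bars give the log2 of treated over control level for the 5 genes and CCND3 in each line, with dashed lines at 1.5-fold either way. CTDSPL passes the lower line in 5 of 6 comparisons, CTDSPL2 in 5 of 6, CTDSP1 and CTDSP2 with palbociclib in BV-173 cells alone, and CTDP1 in none.

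Counted at 1.5-fold, 2 of the 5 genes were lower after knockdown in NALM-6 cells (CTDSPL and CTDSPL2; 8.47% of all listed genes were), 2 in RS4;11 cells (the same pair; 9.72% of all) and 1 in BV-173 cells (CTDSPL; 4.78% of all). Since the choice of CTDSPL used these contrasts, nothing is read from the knockdown counts. With palbociclib 2 genes were lower in NALM-6 cells (14.9% of all), 2 in RS4;11 cells (15.0% of all) and 3 in BV-173 cells (11.9% of all). The pair was CTDSPL and CTDSPL2 in NALM-6 and RS4;11 cells, while the 3 in BV-173 cells were CTDSPL2, CTDSP1 and CTDSP2. No gene of the 5 was 1.5-fold higher in any comparison. Of all listed genes, 3.32% (BV-173 knockdown) to 21.4% (NALM-6 palbociclib) were, so a 0 among 5 genes is no result. Of the 30 values, 12 were at least 1.5-fold lower, a total that includes the knockdown counts and is a description only.

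At 1.5-fold, CTDSPL was the member that was lower in all 3 lines after knockdown (1.83% of genes listed in all 6 comparisons were) and CTDSPL2 the member that was lower in all 3 lines with palbociclib (6.16% of genes). None of the 5 was at least 1.5-fold lower in all 6 comparisons, which 1.59% of genes were. The median of the 5 genes' mean log2 ratios was -0.24 after knockdown and -0.48 with palbociclib, and the median over all genes was 0.00 and 0.04.

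Set side by side within a line, the log2 ratio of CTDSPL after knockdown minus that with palbociclib was -0.84 in BV-173 cells, -0.22 in RS4;11 cells and -0.02 in NALM-6 cells. For CTDSPL2 the differences had the opposite sign, 0.75, 0.23 and 0.31 in the same order. CTDSPL2 was thus lower with palbociclib in each of the 3 lines. CTDSPL was lower after knockdown in BV-173 and RS4;11 cells, whereas in NALM-6 cells its difference of -0.02 became 0.03 once the median log2 ratio of all genes was taken out of each comparison. Both gaps were widest in BV-173 cells. For CTDSP1 the differences were 0.57, 0.03 and 0.33 and for CTDSP2 0.56, 0.29 and -0.26. For CTDP1 they were -0.14, -0.27 and -0.11. The differences of CTDSPL use the knockdown ratios by which it was chosen, so their sign is a description only. None of the differences was tested, and the 2 treatments also differed in time and in the handling of the cells.

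Levels of different genes were compared per length, as the share in ppm of the summed level of the genes listed in all 6 comparisons, per 1000 bases. On this scale CTDSP1 was the highest of the 5 in all 6 control groups, from 48.9 in BV-173 scrambled to 104 in both RS4;11 controls. CTDSP2 ranged from 32.3 to 45.9 and CTDSPL2 from 21.2 to 46.6. CTDSPL2 was above CTDSP2 in the RS4;11 controls and below it in the other 4. CTDP1 ranged from 10.6 to 15.5. CTDSPL was the lowest throughout, at 1.64 and 1.32 in the scrambled and DMSO groups of NALM-6, 4.05 and 5.13 in RS4;11, and 4.37 and 5.79 in BV-173 cells. Between 26.4% and 43.8% of genes were lower than CTDSPL in the controls, and 17.4% in palbociclib-treated NALM-6 cells.

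Of the summed level per length of CTDSP1, CTDSP2 and CTDSPL, CTDSPL made up 1.53% in scrambled and 0.398% in shCCND3 NALM-6 cells. The share went from 2.71% to 0.502% in RS4;11 cells and from 5.11% to 2.40% in BV-173 cells. With palbociclib it went from 1.23% to 0.346% in NALM-6 cells and from 3.48% to 0.813% in RS4;11 cells. In BV-173 cells it was 4.88% in DMSO and 5.87% in palbociclib, where CTDSP1 and CTDSP2 had the larger drop. CTDSPL was a small part of the sum of the 3 genes. After knockdown this sum went from 107 to 100 ppm per 1000 bases in NALM-6, 149.9 to 118 in RS4;11 and 85.5 to 67.1 in BV-173 cells. With palbociclib it went from 107 to 101, from 147 to 109 and from 119 to 67.0 in the same order. The BV-173 controls thus differed, at 85.5 in scrambled and 119 in DMSO.

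**Figure D4:**
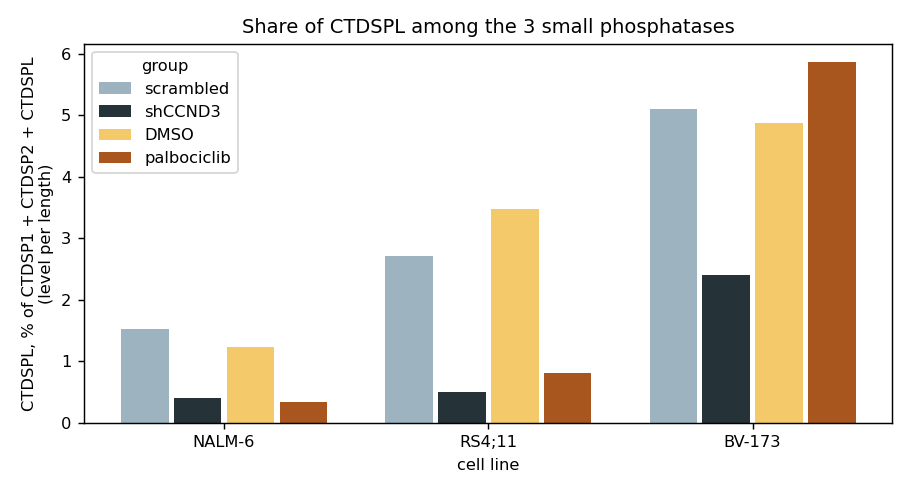
Bars give CTDSPL as a percentage of the summed level per length of CTDSP1, CTDSP2 and CTDSPL in each of the 12 groups. The share is lower in the treated group of every pair except palbociclib in BV-173 cells, where it is 5.87% against 4.88%.

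The scrambled and DMSO controls of a line differed in vector, sorting and time, and they show how far levels move without either treatment of interest. As shares in ppm, CTDSPL stood at a log2 ratio of scrambled over DMSO of -0.40 in BV-173 cells, -0.34 in RS4;11 cells and 0.32 in NALM-6 cells. Over all genes the SD of this ratio was 0.604, 0.517 and 0.619 in that order. For CTDSPL2 the ratio was between -0.09 and 0.00. With median-ratio scaling in place of shares, the NALM-6 ratio was 0.15 for CTDSPL and -0.25 for CTDSPL2. The log2 ratio of CTDSPL in BV-173 cells with palbociclib, -0.50, was close in size to the gap between its 2 controls.

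The other genes of these pathways were counted from lists, by how many were at least 1.5-fold lower or higher in all 3 lines. Over all 13307 genes, 1.83% were lower and 0.609% higher after knockdown, and 6.16% and 4.66% with palbociclib, so that a count of 0 in a short list is no result about it. Of 8 other CTD phosphatases and related proteins (UBLCP1, TIMM50, CTDNEP1, SSU72, RPAP2, RPRD1A, RPRD1B and RPRD2), 0 were lower or higher with either treatment. The furthest from 0 after knockdown were RPRD1A, a CTD-binding protein, with a mean log2 ratio of -0.45, and RPRD2 with -0.20. With palbociclib they were CTDNEP1, a phosphatase of the nuclear envelope, with -0.50 and UBLCP1, a phosphatase of the nuclear proteasome, with 0.47. Of 14 RNA polymerase II subunits and TFIIF subunits, 0 were lower or higher, and their median was 0.01 with either treatment. At a fold milder than 1.5, 2 were lower and 2 higher in all 3 lines with palbociclib. The lists of CTD kinases, of REST and its corepressors and of SMADs, described below, also held lower genes at that fold with palbociclib. The share of all genes at that fold is not given, so nothing is read from these counts. POLR2F (0.21) and POLR2K (-0.20) were the furthest from 0 after knockdown, and POLR2L (0.71) and POLR2F (0.54) with palbociclib.

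Among 12 CTD kinases and their cyclins, 2 were lower in all 3 lines after knockdown (1.83% of all genes were) and 0 with palbociclib (6.16% of all). The 2 were the paralogs CDK8 and CDK19, the kinases of the Mediator complex. CDK8 had log2 ratios of -1.06, -1.10 and -0.69 after knockdown (mean -0.95) and a mean of -0.38 with palbociclib. CDK19 had -0.88, -0.74 and -0.64 after knockdown (mean -0.75) and a mean of 0.00 with palbociclib. Their cyclin, CCNC, had mean ratios of -0.09 and -0.17. At 2-fold in place of 1.5-fold, 0 of the 12 were lower in all 3 lines after knockdown (0.143% of all genes were). With palbociclib MNAT1, a subunit of the CDK7 kinase, had a mean of -0.67 and CDK9, the elongation kinase, 0.50.

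REST and its corepressors, and the SMADs, are partners and substrates of the small phosphatases. The share of all genes lower in all 3 lines, 1.83% after knockdown and 6.16% with palbociclib, comes to less than 1 gene in a list of this size. Of 12 genes for REST and its corepressors, 0 were lower or higher in all 3 lines, and REST itself had mean log2 ratios of 0.02 after knockdown and 0.18 with palbociclib. The corepressor scaffold SIN3A had means of -0.50 and -0.60, its paralog SIN3B had 0.43 after knockdown, and the histone deacetylase HDAC2 had -0.57 with palbociclib. Of 8 SMADs, 0 were lower or higher in all 3 lines. SMAD9 (-0.70) and SMAD5 (-0.37), which carry bone morphogenetic protein signals, were the furthest from 0 after knockdown. With palbociclib they were the common partner SMAD4 (-0.60) and the inhibitory SMAD7 (-0.57), the latter with log2 ratios of 0.39 in NALM-6 cells, -1.42 in RS4;11 cells and -0.67 in BV-173 cells.

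The list of 13 pocket proteins and E2Fs held the most shared changes. After knockdown 5 were lower in all 3 lines (1.83% of all genes were) and with palbociclib 5 were (6.16% of all), with 0 higher in both. The mean log2 ratios after knockdown were -1.73 for E2F7 and -1.51 for E2F8, which are atypical repressors, and -1.37 for E2F2 and -1.36 for E2F1, which are activators. With palbociclib they were -3.29, -3.97, -2.84 and -2.74. The fifth gene, RBL1, the pocket protein p107, was named after its values were seen and had -1.12 and -2.20. RB1 itself, the substrate that CTDSPL shares with CDK4 and CDK6, had -0.11 and -0.45. Of the 13 means, 11 were below 0 after knockdown and 9 with palbociclib. The median of the means of all genes was 0.00 and 0.04. The share of all genes with a mean below 0 is not given, so nothing is read from these counts. Among the listed means above 0, E2F5 had 0.65 after knockdown and 0.50 with palbociclib, and TFDP2 had 0.98 with palbociclib. At 2-fold, 1 of the 13 was lower in all 3 lines after knockdown (0.143% of all genes were) and 5 with palbociclib (3.08% of all). For each of these 5 genes the mean palbociclib ratio was the lower of the pair.

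**Figure D5:**
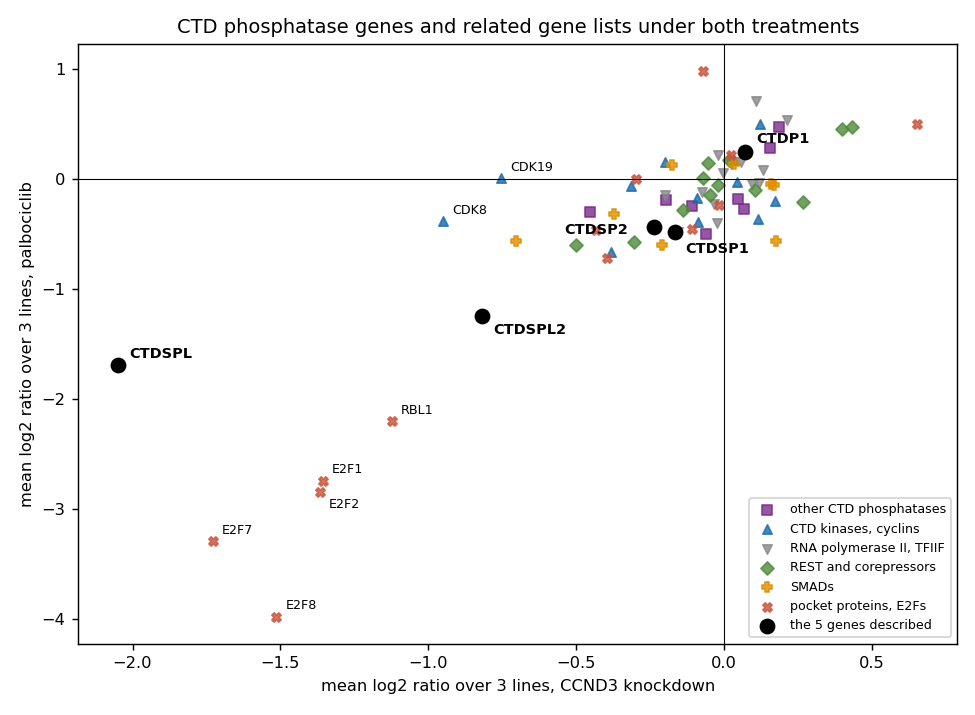
Each point is a gene, placed by its mean log2 ratio over the 3 lines after CCND3 knockdown (horizontal) and with palbociclib (vertical), with the 5 genes described in black and the 6 gene lists in color. CTDSPL lies furthest left at -2.05, with E2F7, E2F8, E2F2, E2F1 and RBL1 below it on the palbociclib axis, and CTDSPL2 lies at -0.82 and -1.25.

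The genes whose 6 log2 ratios lay nearest to those of CTDSPL, by Euclidean distance over 10645 genes with a mean level of at least 50, were FIGNL1 (distance 1.23), UHRF1 (1.32), GGH (1.44), ZWINT (1.61) and WDR62 (1.62). FIGNL1 is known for its role in recombination repair, UHRF1 for the upkeep of DNA methylation, GGH for the hydrolysis of folate polyglutamates, ZWINT for the kinetochore and WDR62 for the spindle pole. FIGNL1 had log2 ratios of -1.42, -2.00 and -1.09 after knockdown and of -1.84, -2.69 and -1.13 with palbociclib, in the order NALM-6, RS4;11, BV-173. Its ratio was above that of CTDSPL in the 3 knockdown comparisons and below it with palbociclib in RS4;11 and BV-173 cells. Since 3 of the 6 ratios are those by which CTDSPL was chosen, these names are a description only. Of the 4 of these genes with a RefSeq promoter window, UHRF1 and WDR62 held an E2F word and ZWINT held TTTGAA, and GGH had no entry. UHRF1 had 3 windows, of which 1 held the word. Of all genes with a window, 2.75% held an E2F word and 18.2% held TTTGAA. The match in ZWINT is thus no result, and the E2F words were not tested.

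CTDSPL2 had closer neighbors: NEDD1 (distance 0.129), a centrosome protein, TM6SF1 (0.187) and LIN54 (0.209), a DNA-binding subunit of the DREAM complex. The others were GPD2 (0.342), a mitochondrial glycerol-3-phosphate dehydrogenase, and NUP58 (0.351), a nuclear pore protein. NEDD1 had log2 ratios of -0.95, -0.91 and -0.52 after knockdown and of -1.29, -1.20 and -1.21 with palbociclib. Of these 5 genes, LIN54 held TTTGAA, which 18.2% of all genes with a window held, so this is no result about them. CTDSPL2 itself was at a distance of 2.79 from CTDSPL, with 281 genes nearer, and CTDSP1, CTDSP2 and CTDP1 were at 4.35, 4.46 and 5.22. These distances from CTDSPL also use the knockdown ratios by which it was chosen and are a description only. The names depend on the measure: with Pearson correlation over the 6 ratios, 0 of the 5 genes named for CTDSPL and 1 of the 5 named for CTDSPL2 were among the nearest 5.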

How the data were processed

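RNA of the 3 B-ALL lines was sequenced after oligo dT selection. According to the study's methods and the submitters' processing notes, the authors filtered reads with SOAPnuke, aligned them with Bowtie2 (hg38), estimated expression with RSEM and compared groups with DESeq2; versions were not given in the sources used here. The authors deposited 6 tables, each with 1 normalized expression signal per gene and group and a gene length in bases that can differ between tables (it did for 7354 of 13307 genes). How libraries were pooled into that signal was not given in the sources used here. The tables also hold the authors' log2 fold changes, p-values and adjusted p-values, which were not used. The summed signal per group differed by less than 1.5-fold between groups, and read depth is unknown.

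Groups followed the labels. Log2 of treated over control was taken within each table without a pseudocount (Python 3.11.15, numpy 2.4.6, pandas 2.3.3, matplotlib 3.10.9). The tables were scaled separately, so levels were compared across tables as shares of the summed signal, and levels printed as deposited are comparable within a table only. A gene was counted as lower or higher at 1.5-fold or more. Members and lists were chosen with earlier results of these data known. From each list, up to 4 genes lower or higher in all 3 lines were named per treatment by the size of their mean, or 2 where there were none. The 5 nearest genes to CTDSPL and to CTDSPL2 were also named. Scripts were tested on simulated data. Alternatives were other pseudocounts (1, 10), centring on the median gene, leaving out a line, 2-fold and a milder fold, level filters (10, 100), another scaling and another distance. Positions, miRNAs and promoters are from RefSeq (GRCh38.p14) and exons from GENCODE. Part of the B-lineage marker list, and the totals that include it, are not reported here.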

Additional observations from a re-analysis of the deposited data

How the results depend on the processing

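The mean log2 ratios over lines and the mean knockdown minus palbociclib differences of the 5 genes kept their sign under each alternative run. The mean for CTDSPL lay between -2.40 and -1.70 after knockdown and between -2.29 and -1.27 with palbociclib. Taking out the median of all genes moved the mean of CTDSPL2 with palbociclib to -1.28, which is more than its very small SD over lines. Counts of genes lower depended on the fold: at 2-fold, 1 was lower after knockdown in NALM-6 cells and 1 with palbociclib in BV-173 cells, and at a fold milder than 1.5, 2 were lower after knockdown in BV-173 cells and 3 in RS4;11 cells, and with palbociclib 3 in NALM-6 cells, 4 in RS4;11 cells and 4 in BV-173 cells. These follow from the threshold itself. The share of all listed genes within a comparison is given at 1.5-fold only, so nothing is read from the counts at the other folds. Of the values for single genes, lists and neighbors, 149 moved by less than the spread over lines or by less than 1.5 times under an alternative and 18 moved by more. A change of sign came with taking out the median of all genes, in NALM-6 cells, for values near 0: the palbociclib log2 ratio of CTDSP2 went from 0.00 to -0.06 and the difference of CTDSPL between treatments from -0.02 to 0.03. Most of the 18 were list counts at another fold and neighbors by another measure.

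No paired analysis was possible because the tables hold 1 value per group, so libraries could not be paired by replicate. Ratios and differences between treatments were taken within each line. Without replicate values or read depth, differences between lines and between treatments were not set against the error of the libraries.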
